A study of Homo sapiens with 14 samples.

Results

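The comparison described here lies within one compound. It sets the 2 libraries of MDA-MB-231 cells labelled 120 min in CX-5461 (5 µM) against the 2 labelled 30 min in CX-5461 at the same dose, which are 4 of the 14 libraries of the series. The libraries were chosen by their labels alone, and the comparison as tested used no control library. MDA-MB-231 is an established human breast cancer cell line, so the results hold for 1 line and for poly(A) RNA from whole cells grown in serum. The other treated groups, which served to estimate the spread between replicates, were CX-5461 labelled 10 min and RBI2 (5 µM) labelled 10, 30 and 120 min, each with 2 libraries. RBI2 is a small molecule studied as an inhibitor of ribosome biogenesis. The labels do not say whether the 2 replicates of a group were separate cultures, so the p-values measure the spread between these libraries, which may be technical. Times are written as the labels give them. The names of the deposited files carry the numbers 2, 10 and 30 for the libraries labelled 10, 30 and 120 min, and if these numbers are times the libraries labelled 120 min were treated for 30 min and those labelled 30 min for 10 min. For the libraries labelled 10 min the number is 2, with no unit. Which reading is right was not settled.

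CX-5461 is an inhibitor of RNA polymerase I (Pol I), the enzyme that transcribes the ribosomal RNA repeats in the nucleolus. It keeps the initiation complex of Pol I from engaging the ribosomal DNA promoter, and it also traps topoisomerase on DNA and stabilises G-quadruplex structures. Ribosomal RNA itself is not measured by these values, since reads matching the ribosomal DNA repeat had been removed before transcripts were quantified. What the comparison shows is therefore mostly messenger and long noncoding RNA. The genes that respond first to growth signals and stress, such as FOS, JUN, EGR1, MYC and the ID genes, make short-lived transcripts whose levels can move within minutes, while most messenger RNAs change over hours.

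The 4 libraries held between 14892514 and 24849354 estimated reads, and genes of the mitochondrial genome took between 8.17% and 8.80% of them. The 7 markers of the cell line were all measured, with a summed level between 7289 and 7595 CPM (counts scaled to a common library size, here by the trimmed mean of M values, TMM). VIM (vimentin) had the highest, between 2946 and 3336 CPM. Of these markers EGFR was higher with the label 120 min (159 and 118 CPM against 180 and 248 CPM, edgeR adjusted p = 0.0473) and KRT18 was lower (509 and 568 CPM against 475 and 424 CPM, adjusted p = 0.0476), and neither passed with a GC and length correction (adjusted p of 0.125 and 0.921). Of the 7 luminal epithelial markers PGR had no read and ESR1, CDH1 and FOXA1 lay below 0.2 CPM, while KRT19 lay between 57.1 and 86.6 CPM, EPCAM between 10.2 and 11.2 CPM and GATA3 between 4.80 and 5.84 CPM. The summed leukocyte markers lay between 0.259 and 0.391 CPM, with CD3E and MS4A1 at 0, and the summed endothelial markers between 0.0648 and 0.503 CPM. The fibroblast markers summed to between 7.52 and 8.72 CPM in both groups. After estimated reads had been summed per gene, 15442 genes had enough reads to be tested. In bulk libraries, a lower level in each cell and fewer cells with the RNA cannot be told apart.

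Among genes with reads in all 4 libraries, the smallest adjusted p belonged to ID2, which was higher with the label 120 min, and then to CCN1, ID1 and SOCS3, which were lower. ID1 and ID2 are inhibitors of DNA binding, proteins without a DNA-binding domain that pair with helix-loop-helix transcription factors and keep them off DNA, and both are known targets of bone morphogenetic protein (BMP) signalling. ID2 (chr2:8678845-8684461, GRCh38, GENCODE 44) was at 6.85 and 6.55 CPM in the libraries labelled 30 min and at 16.8 and 16.6 CPM in those labelled 120 min. Both libraries labelled 120 min lay above both labelled 30 min. The log2 fold change was 1.31 ± 0.10 (SE), a 2.48-fold rise, with an edgeR quasi-likelihood adjusted p of 0.000676. ID2 passed in all of the 24 other fits of this comparison. ENSG00000262526, which had no read with the label 30 min, had a smaller adjusted p (0.000587 in edgeR) and passed in all of the 21 fits that gave it one. These fits share the same estimated reads, so they cannot show how reads were divided between this gene and the genes it overlaps. ID1 (chr20:31605283-31606515), the relative of ID2, went the other way from ID2, from 163 and 193 CPM to 102 and 92.7 CPM. The groups did not overlap, and the log2 fold change was -0.87 ± 0.09 (edgeR adjusted p = 0.00529). ID3, of the same family, fell by 0.54 on the log2 scale (adjusted p = 0.0472), but had -0.22 with a GC and length correction (adjusted p = 0.0951), and ID4 lay below 0.7 CPM in all 4 libraries.

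CCN1 (chr1:85580761-85584589), a secreted matrix protein whose gene responds early to serum and to YAP, was at 711 and 692 CPM with the label 30 min and at 519 and 500 CPM with the label 120 min. The replicates of each group differed by far less than the groups did, and the log2 fold change was -0.47 ± 0.05 (edgeR adjusted p = 0.00529). SOCS3, an inhibitor of cytokine signalling through JAK kinases (chr17:78356778-78360077), was at 62.2 and 62.1 CPM against 43.2 and 43.0 CPM. Its log2 fold change was -0.53 ± 0.06 (edgeR adjusted p = 0.00566). CCN1 passed in 19 of the 24 other fits, ID1 in 20 and SOCS3 in 16.

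JUN and MYC were lower with the label 120 min, and FOS and EGR1 were higher. JUN (chr1:58776845-58784048), a subunit of the transcription factor AP-1, was at 101.0 CPM in each library labelled 30 min and at 78.4 and 76.1 CPM in those labelled 120 min, a log2 fold change of -0.39 ± 0.06 (edgeR adjusted p = 0.0371). MYC, a transcription factor that drives growth and ribosome production, was at 160 and 162 CPM against 120 and 123 CPM, a log2 fold change of -0.41 ± 0.06 (edgeR adjusted p = 0.0371). FOS (chr14:75278826-75282230), the partner of JUN in AP-1, went up from 2.65 and 2.46 CPM to 4.47 and 5.09 CPM. EGR1 (chr5:138465479-138469303), a zinc finger transcription factor, went up from 7.94 and 9.99 CPM to 15.0 and 13.3 CPM. Both groups of FOS and of EGR1 were apart from each other, with log2 fold changes of 0.89 ± 0.15 and 0.65 ± 0.12 and an edgeR adjusted p of 0.0472 each. ZFP36, an RNA-binding protein that hastens the decay of AU-rich transcripts, had a log2 fold change of 0.58 ± 0.13, and KLF10, a TGF-beta-induced repressor, one of 0.43 ± 0.08 (adjusted p = 0.0472 for each). IER2 and IER3, early response genes of the growth factor pathway, fell by 0.49 and 0.42 on the log2 scale, and with the GC and length correction their log2 fold changes were -0.22 and -0.11 (adjusted p of 0.125 and 0.39), so that neither passed. These calls held in fewer of the other fits, for MYC in 12 of 24, JUN in 11 of 24, KLF10 and IER2 in 10 of 24, and FOS, EGR1 and ZFP36 in 8 of the 21 fits that gave a p. With an offset for average transcript length in edgeR, FOS (adjusted p = 0.0788), EGR1 (0.0899), ZFP36 (0.093) and KLF10 (0.0932) did not pass. Nor did JUN (0.0558), MYC (0.0898) and IER2 (0.0788), which fell. In DESeq2 with the length offset JUN, MYC, IER2 and KLF10 did pass (adjusted p of 6.86e-05, 0.0029, 0.00234 and 0.00563). That fit gave no adjusted p for FOS, EGR1 and ZFP36. Of the 23 early response genes tested, 4 rose, 4 fell and 15 did not pass, with a median log2 fold change of -0.02, against 4.75% of all genes tested that rose, 2.05% that fell and a median of -0.01 over all genes.

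**Figure D1:**
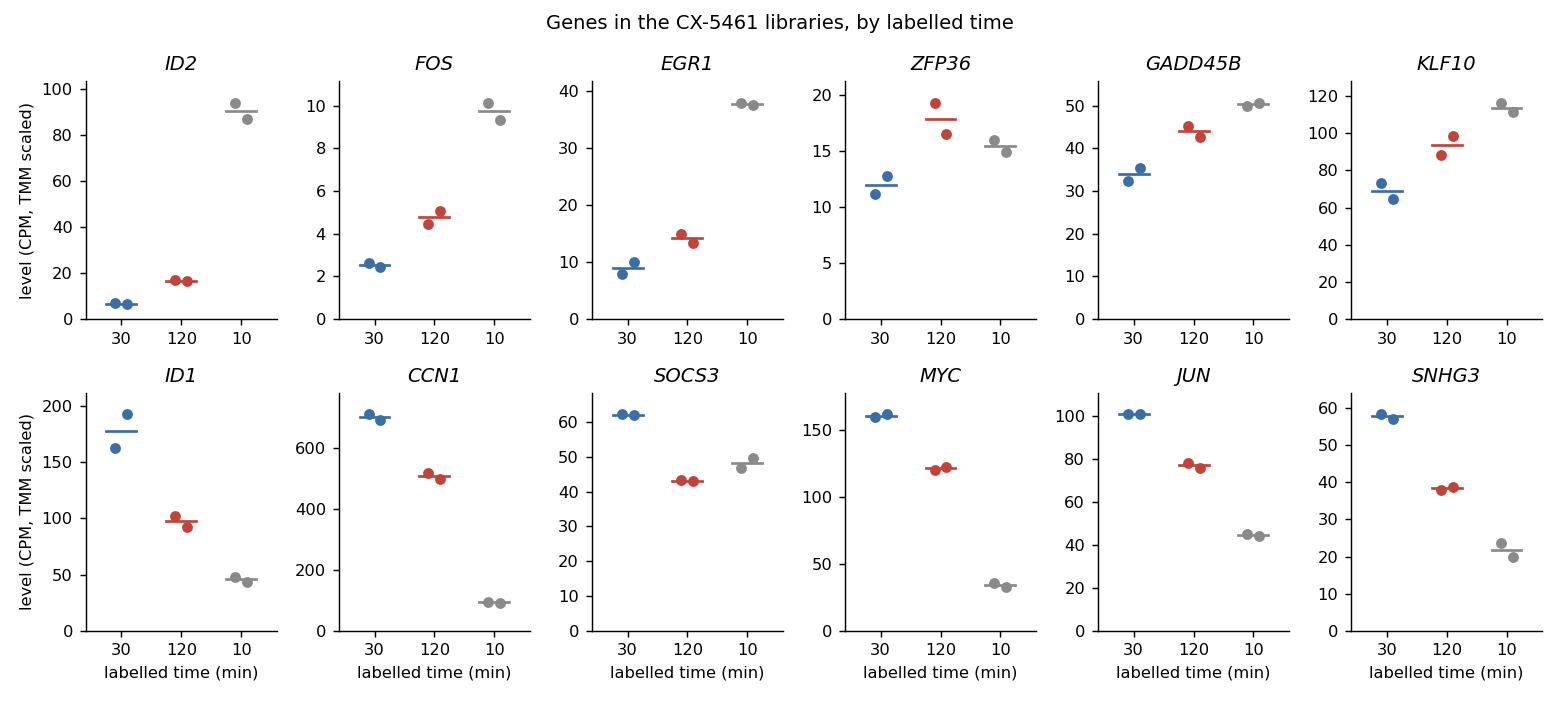
Each panel plots the level of 1 gene in CPM (linear axis from 0) in the 6 CX-5461 libraries, grouped by labelled time, with points for libraries and bars for the mean of 2. The libraries labelled 30 and 120 min do not overlap for any of the 12 genes, and the libraries labelled 10 min lie past those labelled 120 min for all of them except ZFP36 and SOCS3.

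The promoters of 4 of these genes are shown because the genes moved in the same comparison in different directions. Promoters of JUN, SNHG3 and SOCS3 were searched too, held no match and are not printed, so matches are over-represented among those shown. They are RefSeq sequences of GRCh38.p14, from 250 bases before the start site to 50 after it, all on the plus strand. The motifs searched, on both strands, were the cAMP response element TGACGTCA, the AP-1 site TGANTCA, the E-box CACGTG, the TATA box TATAAA and, by name, the CArG box that serum response factor binds. In these 4 promoters no match of one motif overlapped a match of another. Capitals mark the matches, which are descriptions and not sites.
ID2, chr2:8681806-8682105, no match: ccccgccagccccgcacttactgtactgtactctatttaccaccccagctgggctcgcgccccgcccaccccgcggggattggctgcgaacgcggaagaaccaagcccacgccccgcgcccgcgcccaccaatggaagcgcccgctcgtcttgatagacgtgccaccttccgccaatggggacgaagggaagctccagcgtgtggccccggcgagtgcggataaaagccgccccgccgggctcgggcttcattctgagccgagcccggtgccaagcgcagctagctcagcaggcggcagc
ID1, chr20:31605039-31605338, 2 overlapping TATA box matches that begin 33 and 31 bases before the start: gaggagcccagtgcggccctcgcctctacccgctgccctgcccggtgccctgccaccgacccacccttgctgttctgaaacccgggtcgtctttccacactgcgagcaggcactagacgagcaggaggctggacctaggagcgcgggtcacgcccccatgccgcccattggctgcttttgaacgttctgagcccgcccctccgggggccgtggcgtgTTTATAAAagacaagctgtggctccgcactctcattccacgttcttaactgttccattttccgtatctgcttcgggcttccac
FOS, chr14:75278578-75278877, 1 TATA box match that begins 33 bases before the start: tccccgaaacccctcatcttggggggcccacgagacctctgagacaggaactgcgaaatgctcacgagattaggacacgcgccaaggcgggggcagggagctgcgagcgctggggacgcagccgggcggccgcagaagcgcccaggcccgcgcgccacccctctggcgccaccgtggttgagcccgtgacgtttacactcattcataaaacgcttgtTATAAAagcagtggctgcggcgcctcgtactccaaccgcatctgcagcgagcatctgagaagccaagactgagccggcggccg
EGR1, chr5:138465229-138465528, 2 CArG box matches that begin 105 and 83 bases before the start: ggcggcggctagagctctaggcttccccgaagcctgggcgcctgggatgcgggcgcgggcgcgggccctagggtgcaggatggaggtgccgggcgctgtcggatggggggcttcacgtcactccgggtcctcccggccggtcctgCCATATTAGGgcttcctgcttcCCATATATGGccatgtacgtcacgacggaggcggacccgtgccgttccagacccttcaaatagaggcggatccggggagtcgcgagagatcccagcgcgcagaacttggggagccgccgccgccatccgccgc

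Over all 35116 RefSeq promoters of the same length, a TATA box match was present in 11.5%, a CArG box match in 1.29%, a cAMP response element in 1.85%, an AP-1 match in 7.71% and an E-box in 7.26%. Over the 10989 promoters of genes tested here the shares were 5.61%, 1.06%, 3.30%, 4.76% and 9.96%. The start site of the ID2 model in RefSeq lies inside the GENCODE gene, which begins further upstream.

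In all, 1050 of the 15442 genes tested passed the adjusted p of 0.05 (6.8%), of which 733 were higher in the libraries labelled 120 min (4.75%) and 317 were lower (2.05%). A further limit of 1 on the absolute log2 fold change left 51 genes (0.33%), 36 higher and 15 lower. At an unadjusted p under 0.05 there were 4928 genes (31.9%). The adjusted p of most calls was the same number. The value 0.0472 was shared by 710 genes, and only 18 genes lay below 0.047. Of these 18, ID2, ZNF468, RAB8B, ARFGEF1, C2CD5, PKD1P4, BZW1P2 and ENSG00000262526 were higher, and ID1, CCN1, SOCS3, MYC, JUN, DDIT3, SNHG3, VMP1, CACNB1 and ENSG00000276170 were lower. BZW1P2 had no reads in the CX-5461 libraries labelled 10 and 30 min, so its call is a description and no test. The groups did not overlap for any of the 1050 genes, but they did not overlap for 8965 of all genes tested either (58.1%), with the label 120 min higher for 29.6% and lower for 28.4%.

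The 733 genes that were higher were mostly long and poor in GC, and the 317 that were lower were short and rich in GC. The median transcript length, weighted by the reads of each transcript, was 5539 bases among the higher genes, 1274 among the lower ones and 2613 over all genes tested. The median GC content was 40.5%, 58.1% and 48.1%. The same gradient ran through all genes when these were split into 10 groups of equal size (deciles). In the decile of shortest transcripts the median log2 fold change was -0.26, with 10 genes called higher and 111 lower, and in the longest decile it was 0.30, with 285 called higher and 6 lower. In the decile of lowest GC content it was 0.21 and in the decile of highest it was -0.24. Across the 15442 genes, which are not independent replicates, Spearman's rho with the log2 fold change was 0.51 for length and -0.45 for GC content.

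Replicates of 1 group differed along this gradient too. With the label 30 min the median log2 difference of replicate 2 from replicate 1 was -0.23 in the longest decile and 0.19 in the shortest. With the label 120 min it was 0.23 in the longest decile and -0.17 in the shortest. Among the 12 treated libraries, the span from the shortest to the longest decile was lowest in replicate 2 of CX-5461 labelled 30 min (-0.49) and highest in replicate 2 of CX-5461 labelled 120 min (0.47). It lay between -0.24 and 0.15 in the other 10 libraries. Without replicate 2 of the label 30 min 4 genes passed in place of 1050, and without replicate 2 of the label 120 min 2 genes did, while 4056 and 2855 passed without replicate 1 of either group. The 4 RBI2 libraries labelled 30 and 120 min are not part of either group, and they enter through the estimated spread, the filter on low counts and the scaling. Without any 1 of them between 16001 and 16200 genes were tested and between 7 and 11 passed. The cause of the gradient was not tested.

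**Figure D2:**
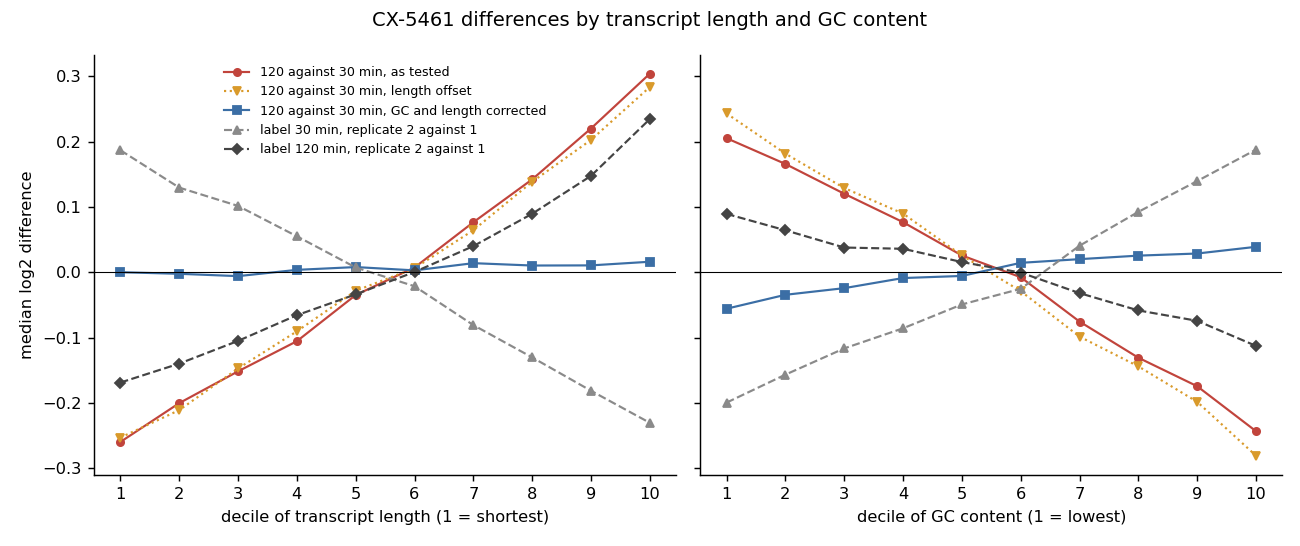
The median log2 difference (vertical axis) is plotted over deciles of the 15442 genes by transcript length (left) and by GC content (right), for the labels 120 against 30 min under 3 fits and for replicate 2 against replicate 1 of each group. The uncorrected difference runs from -0.26 to 0.30 with length, the replicates of a group differ along the same axis, and the corrected difference stays between -0.01 and 0.02 with length and runs from -0.06 to 0.04 with GC content.

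**Figure D3:**
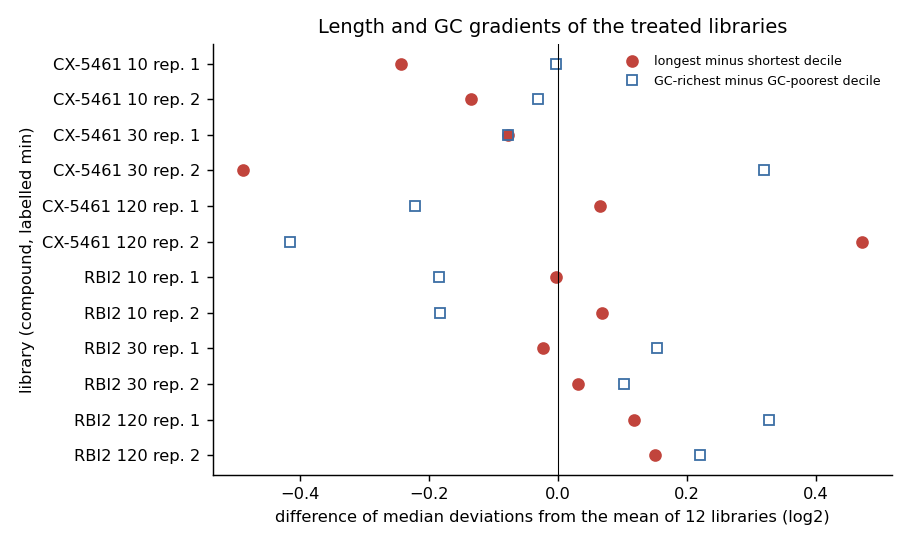
For each of the 12 treated libraries (rows, by compound, labelled time and replicate), the horizontal axis gives the median log2 deviation from the mean of the 12 in the decile of longest transcripts minus that in the shortest (filled points), and the same for the GC-richest and GC-poorest deciles (open squares). The libraries with the lowest and highest length span, at -0.49 and 0.47, are the replicates 2 of the groups compared.

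A smooth correction of each library for GC content and transcript length left 25 genes, of which 10 were higher (0.0648%) and 15 lower (0.0971%), and 23 of them had passed in the same direction without it. The genes that rose were ID2, FOS, EGR1, ZFP36, GADD45B, NBPF8, PKD1P4, ENSG00000262526, ENSG00000288623 and BZW1P2 (no reads with labels 10 and 30 min). Those that fell were ID1, CCN1, JUN, DUSP6, SNHG3, VMP1, CLK1, CACNB1, DKK1, TAF1D, GABARAP, EMP2, MIR23AHG and, of the genes that had not passed before, EIF4A2 and LINC00472. Without the correction EIF4A2 was at -0.15 on the log2 scale (adjusted p = 0.0918), and LINC00472 at -0.02 (adjusted p = 0.928) with overlapping groups, so its fall appears only with the correction. With the correction the log2 fold change of ID2 was 1.34, of FOS 1.02, of ZFP36 0.81, of EGR1 0.73 and of GADD45B, a stress-induced activator of MAP kinase signalling, 0.64 (edgeR adjusted p of 0.000281, 0.0284, 0.0157, 0.0257 and 0.00183). For ID1 it was -0.54, for CCN1 -0.42 and for JUN -0.31 (adjusted p of 0.000784, 0.000778 and 0.0309). MYC had -0.29 (adjusted p = 0.0951) and SOCS3 -0.36 (adjusted p = 0.0598), and neither passed. An offset for the average transcript length of each gene and library, which follows shifts between long and short transcripts of 1 gene, left 9 genes (0.0583%), of which 8 had passed in the same direction without it, and 5 genes passed in all 3 fits. The gradient over length deciles was still from -0.25 to 0.28 with this offset.

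Other genes that passed with and without the GC and length correction have roles in several processes. SNHG3 (chr1:28505980-28510892), a host gene of small nucleolar RNAs, was at 58.3 and 57.1 CPM against 38.0 and 38.8 CPM, a log2 fold change of -0.59 ± 0.08 (edgeR adjusted p = 0.0232). Its span overlaps RCC1 on the same strand, and whether reads were divided between them was not tested. VMP1, a membrane protein of autophagosome formation, was at 116 and 115 CPM against 94.4 and 90.7 CPM. Its log2 fold change was -0.33 ± 0.05 (adjusted p = 0.0425), but 0.24 with the length offset (adjusted p = 0.258). DKK1, a secreted antagonist of Wnt signalling, was at 224 and 235 CPM against 191 and 178 CPM, and DUSP6, the phosphatase that turns off ERK, was at 141 and 136 CPM against 119 and 119 CPM. With the length offset DUSP6 had a log2 fold change of -0.07 (edgeR adjusted p = 0.687), and it passed in 4 of the 24 other fits. CLK1, a kinase of splicing factors, was at 39.0 and 37.1 CPM against 30.1 and 30.4 CPM. MIR23AHG, the host of a microRNA cluster, was at 18.5 and 19.0 CPM against 12 and 10.3 CPM. TAF1D, a subunit of the Pol I initiation factor SL1 whose gene also hosts small nucleolar RNAs, was at 242 and 236 CPM against 211 and 200 CPM, a log2 fold change of -0.22 ± 0.05. All of these libraries labelled 120 min lay below those labelled 30 min.

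Among the 12 largest rises and 12 largest falls with a level of at least 5 CPM were several estimates that went from 0 to a level or back. ENSG00000262526 (chr17:7240427-7244635) had no read in either library labelled 30 min and 25.5 and 24.1 CPM with the label 120 min, at least 249-fold higher against a floor of 3 counts over the group. The same gene had 0 CPM in both RBI2 libraries labelled 30 min and 24.3 and 20.5 CPM in those labelled 120 min. It overlaps GABARAP, an autophagy protein, and CTDNEP1 on the same strand, and GABARAP was at 109 and 127 CPM against 81.3 and 69.6 CPM (log2 fold change -0.64 ± 0.10). The pseudogene BZW1P2 rose from 0 in both libraries to 13.3 and 9.51 CPM, at least 114-fold. It was also at 0 CPM in the libraries of CX-5461 labelled 10 min and of RBI2 labelled 30 and 120 min. The call of BZW1P2 thus rests on reads of the group where it is high, and is a description and no test. RPL3P4, a ribosomal protein pseudogene, fell from 8.82 and 28.7 CPM to 0, at least 265-fold lower against the mean of these 2. With CX-5461 labelled 10 min RPL3P4 was at 7.51 and 0 CPM, so replicates of 1 group differed in this way too. CACNB1, a calcium channel subunit, was at 6.65 and 10.1 CPM against 1.14 and 1.73 CPM, a log2 fold change of -2.58 ± 0.32 (edgeR adjusted p = 0.0174). The other rises were those of TMED7-TICAM2, KLF7, BAHCC1, BTAF1, PKD1P4, ITSN2, ENSG00000291073, EPG5, KLHL11 and CPLANE1, with log2 fold changes from 1.31 to 4.68. With the label 30 min TMED7-TICAM2 was at 0.68 and 0 CPM, KLF7 at 0.75 and 0 CPM and BAHCC1 at 0.48 and 0.52 CPM. The size of these rises is therefore uncertain. The other falls were those of SNRNP25, ENSG00000278791, EIF3CL, SENP3, RPL36A, ENSG00000254373, FAM88C, CDC42EP5, ID1 and ENSG00000268858, from -2.14 to -0.86. Of the 12 rises, 8 overlapped another gene on the same strand, and of the 12 falls 3 did, against 29.0% of all genes tested. Where transcripts share sequence, their reads are apportioned by a model, and such estimates are uncertain. With the GC and length correction, 3 of the 12 rises and 2 of the 12 falls still passed.

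Gene lists were read against the same counts over all genes tested. The snoRNA host genes, which carry small nucleolar RNAs in their introns, had 7 of 23 members lower and none higher, against 2.05% of all genes tested that were lower, with a median log2 fold change of -0.32. They were SNHG3, GAS5, SNHG12, SNHG15, SNHG8, SNHG5 and SNHG32. GAS5, the growth arrest transcript, was at 185 and 191 CPM against 156 and 141 CPM, a log2 fold change of -0.35 ± 0.07. With the GC and length correction only SNHG3 passed of the 7, and the median was -0.14, against 0.00 over all genes. The cytosolic ribosomal protein genes had 15 of 79 members lower and none higher (2.05% of all genes lower), and all 79 log2 fold changes were below 0, with a median of -0.27 and a median transcript length of 619 bases. RPL13 was at 1162 and 1368 CPM against 1058 and 908 CPM, and its corrected log2 fold change was 0.04. With the correction no ribosomal protein gene passed and the median was -0.02. Genes of topoisomerases and DNA break repair had 8 of 29 members higher and none lower (4.75% of all genes higher), among them PRKDC, ATM, ATR, BRCA2 and LIG4, with a median of 0.18 and a median transcript length of 3938 bases. PRKDC, the catalytic subunit of DNA-dependent protein kinase, was at 246 and 166 CPM against 281 and 441 CPM, and ATM, the kinase that signals double-strand breaks, was at 38.8 and 27.4 CPM against 45.6 and 64.5 CPM. With the correction none of the 29 passed and the median was 0.01.

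In the other lists few members passed, beside 4.75% of all genes tested that were higher and 2.05% that were lower. The feedback genes of MAP kinase signalling had 2 of 15 members lower, DUSP1 and DUSP6, and none higher, with a median of -0.12 and of -0.14 after the correction. DUSP1 had a corrected log2 fold change of -0.15 (edgeR adjusted p = 0.394), so that only DUSP6 still passed. Of the 22 genes of the Pol I machinery, TAF1D and POLR2L were lower and none was higher, with a median of -0.05. With the GC and length correction TAF1D had -0.34 (adjusted p = 0.0232) and POLR2L had 0.01 (adjusted p = 0.976), so that only TAF1D still passed. UBTF, the factor that opens ribosomal DNA, was at 105 and 106 CPM against 109 and 107 CPM, and RRN3, the factor that brings Pol I to its promoter, at 48.5 and 38.2 CPM against 51.9 and 56.9 CPM (adjusted p = 0.066). Of 49 ribosome biogenesis factors 4 were higher and 1 was lower, with a median of -0.02, and none passed with the correction. Of 15 BMP and TGF-beta target genes ID2 was higher and ID1 and ID3 lower, with a median of 0.03. Of the p53 target genes GADD45B was higher and GADD45A lower among 20, with a median of 0.03. GADD45A did not pass with the correction (log2 fold change -0.16, edgeR adjusted p = 0.205). Of the integrated stress response genes DDIT3, which encodes CHOP, was at 16.6 and 16.9 CPM against 11.6 and 11.6 CPM (log2 fold change -0.54 ± 0.08, adjusted p = 0.0454). With the GC and length correction DDIT3 had -0.32 (edgeR adjusted p = 0.125), and it passed in 7 of the 21 fits that gave a p. SLC7A11 and XPOT were higher, both with corrected values just below 0. The YAP target list had CCN1 lower and CRIM1 and DLC1 higher among 22. CRIM1 and DLC1 did not pass with the correction (edgeR adjusted p of 0.127 and 0.466). No member of the nuclear and structural noncoding RNAs passed among 10, although their median was -0.50. MALAT1, a nuclear transcript, was at 1973 and 1933 CPM against 1685 and 1335 CPM (adjusted p = 0.131). PABPC1, the poly(A)-binding protein, was at 1477 and 1399 CPM against 1499 and 1536 CPM, ATXN2 at 58.2 and 53.6 CPM against 60.4 and 67.0 CPM, and GAPDH at 3305 and 3817 CPM against 3215 and 2867 CPM, with adjusted p of 0.425, 0.108 and 0.0601.

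**Figure D4:**
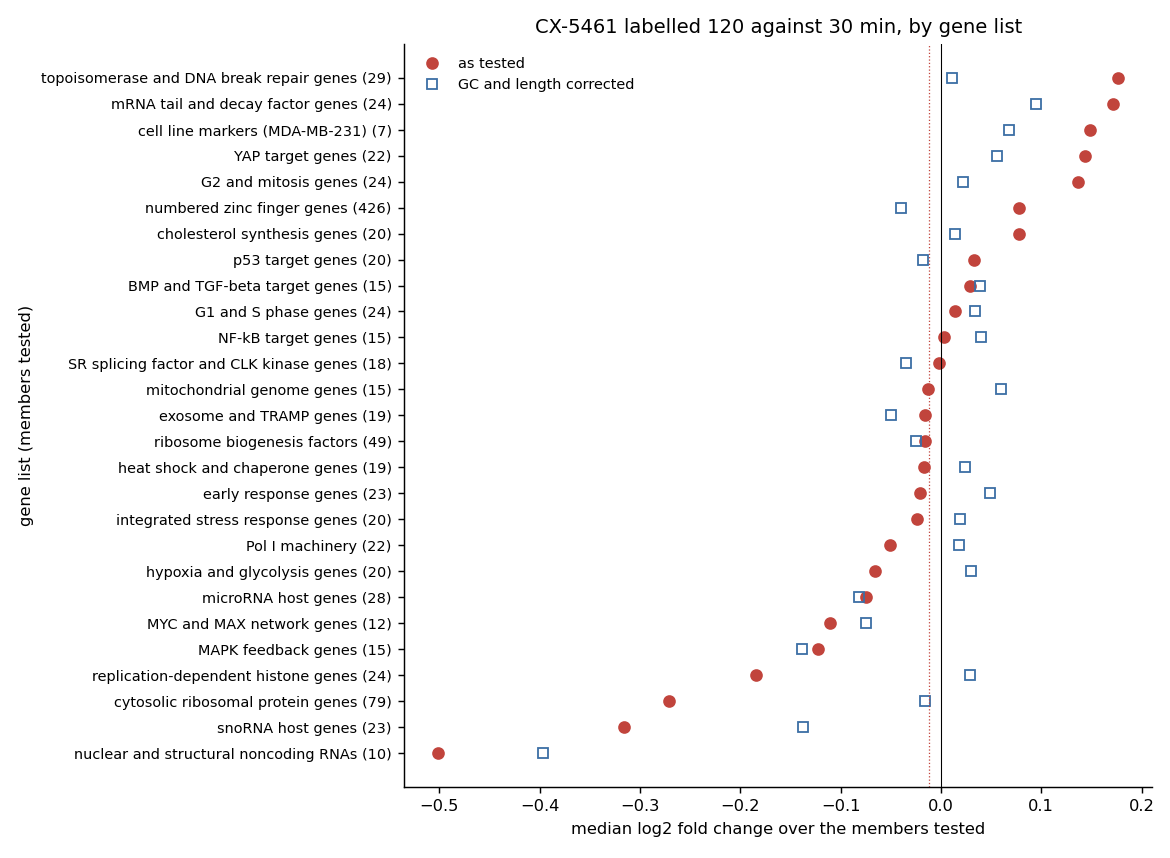
For each list with at least 5 members tested (rows, with the number tested), the horizontal axis gives the median log2 fold change of CX-5461 labelled 120 against 30 min, as tested (filled points) and with the GC and length correction (open squares). The dotted line is the median of all genes tested. The ribosomal protein, histone and DNA repair lists move to within 0.03 of 0 with the correction, the snoRNA host genes move from -0.32 to -0.14, and the nuclear and structural noncoding RNAs lie at -0.50 and -0.40.

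The libraries of CX-5461 labelled 10 min gave a further level for each gene. The number in their file names is 2, so on that reading these levels do not belong to 10 min. ID2 was at 93.9 and 86.8 CPM there, above both of the groups compared, and CCN1 was at 95.7 and 91.8 CPM, below both. MYC was at 35.5 and 32.7 CPM, JUN at 45.3 and 44.1, ID1 at 47.9 and 43.4, DUSP6 at 48.5 and 44, DKK1 at 56.4 and 56.2 and SNHG3 at 23.5 and 19.8 CPM, all below the libraries labelled 120 min. FOS was at 10.1 and 9.35 CPM and EGR1 at 37.9 and 37.5 CPM, both above. Of the 25 genes that passed with the GC and length correction, 16 had a mean with the label 10 min beyond that with the label 120 min, seen from the label 30 min. For the 733 genes called higher without the correction this was so for 20 (2.73%), and for the 317 called lower for 49 (15.5%), against 25.5% of all genes with a difference. The mean with the label 10 min lay between the 2 groups for 632 of the 733 (86.2%) and 245 of the 317 (77.3%). Over all genes with a difference this share was 41.7%. Called genes were chosen for a difference between the labels 30 and 120 min, so the shares cannot be compared. For ID2, CCN1, MYC, JUN, ID1, FOS and EGR1, the labelled times in the order 30, 120 and 10 min gave levels in 1 direction. This position is read from the same libraries labelled 30 and 120 min that gave the calls, so it is a description and carries no test.

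The same labelled interval with RBI2 called 199 genes (1.29%), 174 higher and 25 lower. This balance depended on the setting, with 242 higher and 155 lower after the GC and length correction and 73 higher and 24 lower with total counts only. The difference between the compounds in the interval, tested as an interaction, passed for 468 genes (3.03%). Across the genes tested, Spearman's rho between the log2 fold changes of the compounds was -0.003. ID2 was at 4.93 and 5.92 CPM with RBI2 labelled 30 min and at 4.67 and 5.30 CPM with the label 120 min, and its interaction was 1.38 on the log2 scale (edgeR adjusted p = 0.0247). ID1, CCN1 and SOCS3 had log2 fold changes of -0.23, -0.12 and -0.12 with RBI2, none of which passed, and their interactions passed with an adjusted p of 0.0462 each. SNHG3 was at 71.3 and 73.1 CPM against 80.2 and 74.1 CPM with RBI2, and its interaction was -0.74 (adjusted p = 0.0383). JUN, MYC, FOS and EGR1 had log2 fold changes of -0.23, -0.17, 0.36 and 0.37 with RBI2, none of which passed, and their interactions had adjusted p of 0.238, 0.109, 0.227 and 0.32. VMP1 fell with RBI2 as well, by 0.29 on the log2 scale (adjusted p = 0.0295). DKK1 and CLK1 had -0.31 and -0.41 with RBI2 and PKD1P4 had 1.28 (edgeR adjusted p of 0.0323, 0.0411 and 0.0349), each in the direction seen with CX-5461. SFXN3, a mitochondrial serine transporter, had the smallest adjusted p of the interaction (0.00837), at 14.9 and 18.4 CPM against 12.4 and 10.8 CPM with CX-5461 and at 24.8 and 18.7 CPM against 61.7 and 64.7 CPM with RBI2. With any 1 of the 4 RBI2 libraries left out, between 0 and 4 interactions passed in edgeR's test. The count of 0, without replicate 2 of RBI2 labelled 120 min, stood beside 3505 genes at an unadjusted p under 0.05, and DESeq2 with all 12 libraries called 1117 interactions.

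**Figure D5:**
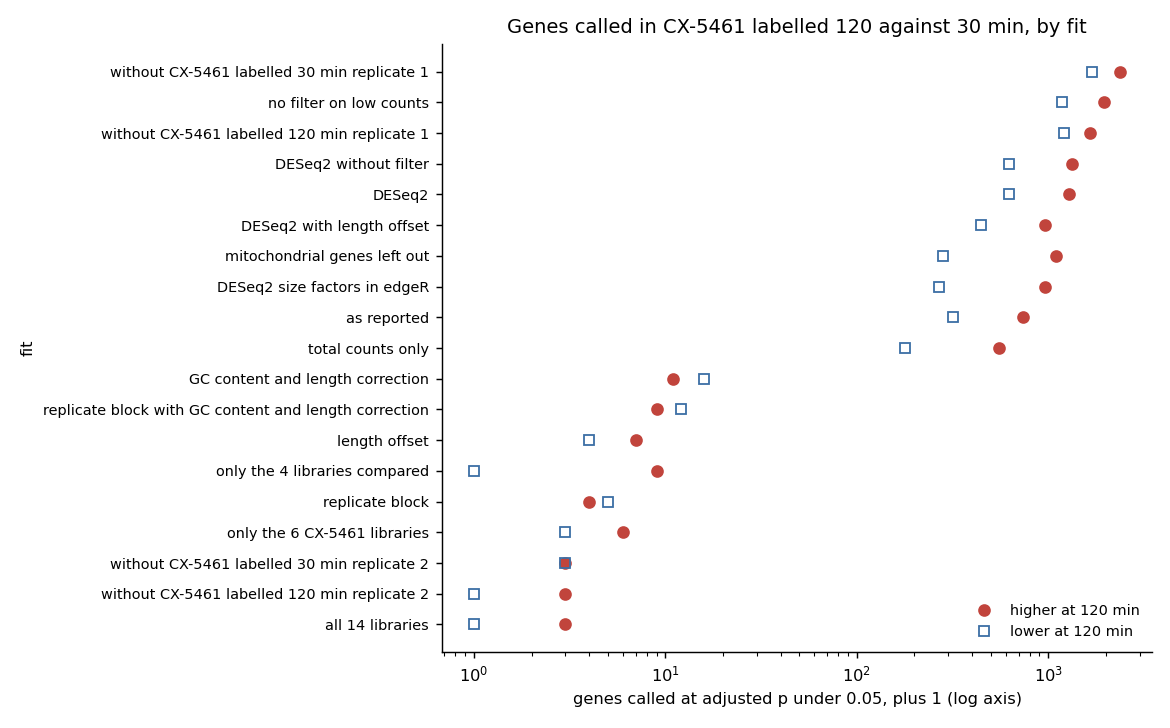
For the fits named in the rows, the horizontal log axis gives the number of genes called at an adjusted p under 0.05, plus 1, higher (filled points) and lower (open squares) in the libraries labelled 120 min. The fits shown fall into those with 729 or more calls in both directions together and those with 25 or fewer.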

How the data were processed

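RNA from 12 treated MDA-MB-231 libraries entered this comparison, 2 in each group of compound and labelled time. The submitters' processing notes name Salmon 1.3.0 and GRCh38; the annotation release is not given in the sources used here. The authors removed reads aligned to the ribosomal DNA repeat and deposited, for each transcript, the estimated count of reads, neither normalized nor rounded, the TPM value and the effective length. The deposited TPM values entered no comparison, and the deposited effective lengths, in bases, entered only the length offset.

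Transcripts were matched by identifier to GENCODE 44 (225662 of 228754), and their estimated counts were summed per gene and rounded. Transcripts without a match held from 1.03% to 1.13% of each library's reads and were left out. Counts were tested with edgeR 4.0.16 in R 4.3.3 (TMM, filterByExpr with a minimum count of 10, glmQLFit and glmQLFTest) in one model of the 6 groups, whose common biological coefficient of variation was 7.67%. Benjamini-Hochberg adjustment ran over all 15442 genes, with a threshold of 0.05. Depths lay between 14112299 and 24849354 estimated reads. Floors cover counting error only, and the ± values are standard errors of edgeR's fit, from the spread between replicates. The test was tested on simulated data, which held no length or GC gradient between replicates and so do not cover that feature of these libraries. GC content and read-weighted transcript length were removed per library with lowess curves (span 0.3) on log2 CPM (prior count 2) in one alternative. The other alternatives were DESeq2 1.42.0, other scalings, filters and sets of libraries, a replicate block, and each library left out. DESeq2 with the length offset and the crossed block were chosen after seeing the data.

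The members and the 31 gene lists were chosen with earlier results of these data known. The genes named by rule were the 12 largest rises and 12 largest falls among those that passed with at least 5 CPM and groups that did not overlap, up to 6 members of each list that passed or otherwise the 2 with the smallest adjusted p, GAPDH, PABPC1, ATXN2, ID2, CCN1 and MYC, and the 4 interactions with the smallest adjusted p in each direction. The genes below an adjusted p of 0.047, those that passed with the GC and length correction, and ID4, UBTF, RRN3, MALAT1 and IER3 were named after their values were seen. Promoters of 7 genes were searched for motifs, and 4 are shown.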

Additional observations from a re-analysis of the deposited data

Results flagged for a closer look

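The difference between the labels 120 and 30 min differed between CX-5461 and RBI2, by the interaction in edgeR's quasi-likelihood fit (adjusted p under 0.05), for 36 of the 123 genes named. The share over all genes tested was 3.03%, but the genes were named because they passed with CX-5461 or for the interaction itself, so the counts cannot be compared. With any 1 RBI2 library left out, 0 to 4 interactions passed over all genes in edgeR (3505 at an unadjusted p under 0.05 where 0 passed), and DESeq2 with all 12 treated libraries called 1117. All values are log2 differences, CX-5461 minus RBI2. Of the genes that rose with CX-5461, the difference was 1.38 for ID2, 0.74 for ZNF468, 0.65 for C2CD5, 0.79 for ARFGEF1, 0.91 for RAB8B, 0.92 for NEK7, 0.69 for SEPTIN10, 0.47 for XPOT, 3.69 for BTAF1 and 4.39 for KLF7. None of these 10 genes passed with RBI2 alone. With CX-5461 labelled 30 min KLF7 was at 0.75 and 0 CPM and BTAF1 at 4.95 and 0.78 CPM. The size of their differences is therefore uncertain. Of other named genes that fell, the difference was -0.64 for ID1, -0.34 for CCN1, -0.42 for SOCS3, -0.53 for IER2, -0.61 for DDIT3 and -0.42 for GADD45A. Of the host genes of small RNAs it was -0.74 for SNHG3, -0.69 for SNHG12, -0.60 for SNHG15, -0.47 for GAS5, -0.91 for MIR23AHG and -0.38 for TAF1D. Of the ribosomal protein genes it was -0.66 for RPS15A and -0.49 for RPS3. The other differences below 0 were -0.40 for EMP2, -0.47 for ZNF282, -0.57 for ENSG00000276170, -1.09 for CDC42EP5, -1.39 for FAM88C, -1.49 for SENP3, -1.67 for EIF3CL, -3.18 for CACNB1, -1.47 for ENSG00000286147, -2.09 for SFXN3 and -2.38 for RN7SL2. For the lncRNA ENSG00000258964, which overlaps HIF1A on the same strand, the fitted value was -8.81, but both RBI2 libraries labelled 30 min were at 0 CPM, so this value is set by the prior count and is no measured difference.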

How the results depend on the processing

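The number of genes called in CX-5461 labelled 120 against 30 min depended on most settings, and 710 genes shared 1 adjusted p just under the threshold. The count of 1050 was 1230 with DESeq2 size factors, 729 with total counts only, 1372 without mitochondrial genes, 1413 in DESeq2 with the length offset, 1913 in DESeq2, 1961 in DESeq2 without a filter, 3140 in edgeR without a filter and 4928 by unadjusted p. It was 25 with the GC and length correction, 9 with the length offset, 8 with only the 4 libraries compared, 7 with the 6 CX-5461 libraries and 2 with all 14 libraries. With 1 library of these groups left out it ran from 2 to 4056. The count of 51 past the fold limit was 12 in DESeq2 with and without the filter, 16 in DESeq2 with the length offset, 334 without a filter in edgeR, 7 with the correction, 3 with the length offset, 8 with the 4 libraries, 7 with the 6, 2 with all 14 and 240 by unadjusted p, and it ran from 2 to 227 with 1 library left out.

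For RBI2 the 199 calls became 425 in DESeq2, 397 with the correction, 85 with the length offset, 1236 without a filter and 2 with all 14 libraries, and 7 to 27 with 1 RBI2 library left out. The 468 interactions became 1117 in DESeq2, 307 with the correction, 4 with the length offset, 2123 without a filter and 0 in edgeR with all 14 libraries, where 2343 genes had an unadjusted p under 0.05. They ran from 0 to 2808 with 1 library left out.

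Replicates shared only a number. The deviations from the group means of replicates numbered alike had a correlation of -0.11 between the labels 30 and 120 min of CX-5461. With a replicate block 7 genes were called (4 past the fold limit), 104 with RBI2 and 2 interactions, and with the block and the GC and length correction 19 (6 past the fold limit). In the 4 libraries alone the block called 106 genes, and with the numbers crossed, a pairing chosen after seeing the data, it called 4886.

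Of 108 named genes that passed, 23 kept direction and call with the correction, 7 with the block, 6 with the length offset and 2 with all 14 libraries. The sign turned, as log2 fold changes with the correction and with the correction and block, for SLC7A11 (-0.0407 and -0.0413), XPOT (-0.00267 and -0.00233), POLR2L (0.00631 and 0.00646), DDX52 (-0.0466 and -0.0479), RPL13 (0.0436 and 0.0437), RPS18 (0.00775 and 0.00781), RPL36 (0.1113 for both), ZNF148 (-0.0994 and -0.1003), KRT18 (0.0138 for both) and GAPDH (0.0472 for both). It turned with the length offset in edgeR and in DESeq2 for ATR (-0.153 and -0.1298) and VMP1 (0.244 and 0.268), and in edgeR for ARFGEF1 (-0.00978). The cause was not tested. With 2 libraries a group, a lone library left in a group is assumed to vary like the others, and low genes and transcripts that share sequence are the least certain.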
